A study of Mus musculus with 6 samples.

Results

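Described here are 9 genes of transforming growth factor beta (TGF-beta) signalling, measured in whole mouse hearts: the ligand genes Tgfb1, Tgfb2 and Tgfb3, the receptor genes Tgfbr1, Tgfbr2 and Acvrl1, the co-receptor genes Tgfbr3 and Eng, and Smad7, an intracellular inhibitor. They were taken by name, with every probe set that the platform annotation assigns to that gene alone. All 9 were found among 18193 named genes, with 21 of the 45037 probe sets (a probe set is the group of oligonucleotides on the array that reports a transcript). Each heart gave 1 Affymetrix Mouse430_2 array. There were 3 hearts labelled wild type and 3 labelled EphB4 mutant, and all were of strain C57B6. The labels name no treatment, and they do not give the kind of mutation, any promoter or Cre behind it, or the age of the animals. Sample descriptions began with eI for hearts 1 and 2 of each genotype and with eM for heart 3 of each genotype. What eI and eM stand for is not stated, so they serve below only as names.

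TGF-beta ligands are secreted as latent dimers that are stored in the matrix and released by integrins and proteases. The active ligand binds the type II receptor encoded by Tgfbr2, which phosphorylates a type I receptor, that of Tgfbr1 or, mainly in endothelium, of Acvrl1. Betaglycan (Tgfbr3) and endoglin (Eng) present ligand to them, and Smad7 is a feedback inhibitor that is itself a target of the pathway. In the developing heart the pathway is known for turning endocardial cells of the cushions into mesenchyme. Tgfb2 is the ligand most closely tied to cushions and outflow tract, and Tgfbr3 aids its binding.

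The values are normalized log2 intensities, on which a difference of 1 is a 2-fold change. Array medians lay between 5.89 and 6.01, and 3 hearts per genotype limit the precision of every comparison. Heart muscle markers were bright in all hearts: the mean of 10 of them, among them the sarcomere genes Tnnt2 and Actc1, lay between 13.29 and 13.43, as the tissue label says. The eM hearts stood apart. For beta-actin, the control probes of the 3′ end exceeded those of the 5′ end, a sign of RNA quality, by 0.51 and 0.77 in them and by 0.28 to 0.41 in the eI hearts. Sex was uneven too: a Y-linked gene, Eif2s3y, was bright in mutant hearts 1 and 3 (9.56 and 9.58) and read 3.49 to 3.79 in the other hearts. The part of RNA quality in the results below was not tested, and that of sex only where Xist is named as a covariate. A heart is a mixture of cell types, so fewer cells of a type and less RNA per cell cannot be told apart.

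No difference between mutant and wild-type hearts passed the test at any of the 8 genes with a tested probe set. Acvrl1 was too dim to be tested. The 14 probe sets bright enough to be tested (mean of at least 5.38, the lowest 40% left out) differed by -0.29 to 0.12 log2 between genotypes, with a median of -0.0016 against 0.01 over all 27022 tested probe sets. In limma, 0 of the 14 passed an adjusted p of 0.05 (smallest adjusted p = 0.9999) and 0 had an unadjusted p under 0.05. Over all tested probe sets 0% were called, and 1.17% had an unadjusted p under 0.05. At none of the 14 were the 3 mutant hearts all above or all below the 3 wild-type hearts, a pattern seen at 4.67% of tested probe sets. Two-sided exact permutation p of the 21 probe sets ran from 0.1, the smallest that 3 against 3 allows, to 1. Intervals were wide where the eM heart of each genotype lay far from its eI hearts: that of the brightest Tgfbr2 probe set ran from -0.76 to 0.95. In a fit without the filter it ran from -0.73 to 0.92, and there it narrowed to -0.18 to 0.36 with eI and eM as a covariate. With that covariate and the filter, limma again called 0 probe sets (0% of the array). An unadjusted p under 0.05 was reached by 4.37%, with none of the 14 among them.

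**Figure D1:**
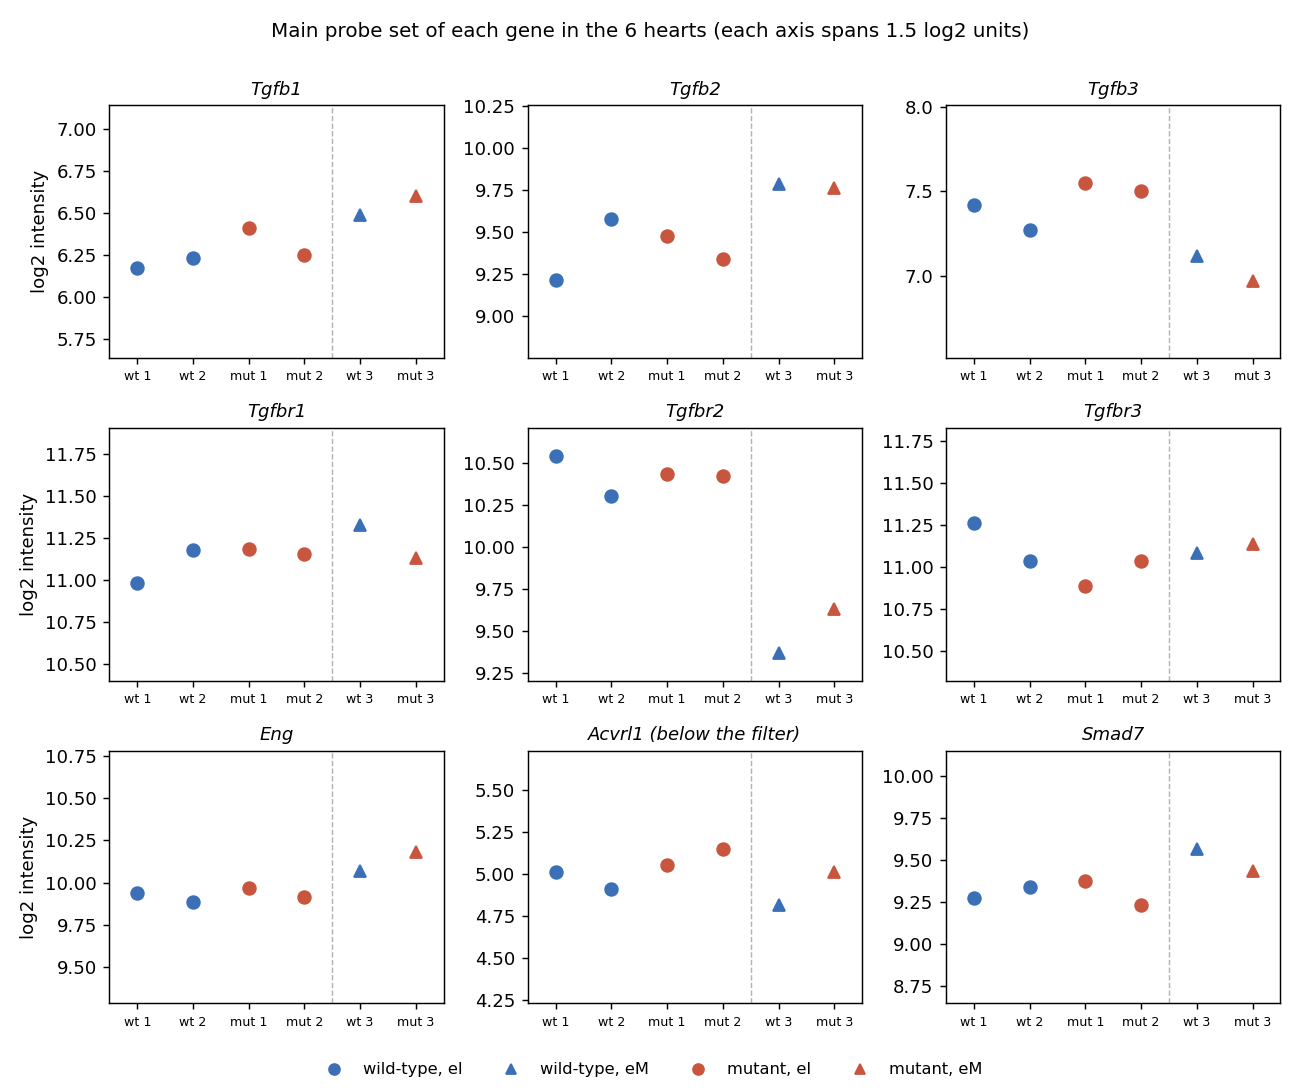
Log2 intensity of the brightest probe set of each gene in each heart (wt, wild type; mut, mutant), circles for eI hearts and triangles for eM hearts, with wild-type hearts in blue and mutant hearts in red. Every vertical axis spans 1.5 log2 units. Blue and red mix in every panel but that of Acvrl1, while the triangles of Tgfbr2, at 9.37 and 9.63, lie below all circles, which run from 10.30 to 10.54.

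The hearts differed by their letters instead, at Tgfbr2 and Tgfb2 above all. With genotype as a covariate, limma called 2 of the 14 probe sets between eM and eI hearts, Tgfbr2 lower and Tgfb2 higher in eM. Of all tested probe sets 11.7% were called, 6.75% higher and 4.94% lower, so 2 of 14 (14.3%) is close to the share across the array. The 2 eM hearts lay outside the range of the 4 eI hearts at 9 of the 14 probe sets (64.3%), 5 above and 4 below, against 43.1% over the array. An unadjusted p under 0.05 was reached by 5 of the 14 and by 29.2% of the array. The median absolute difference was 0.23 for the 14 and 0.18 for all tested probe sets.

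**Figure D2:**
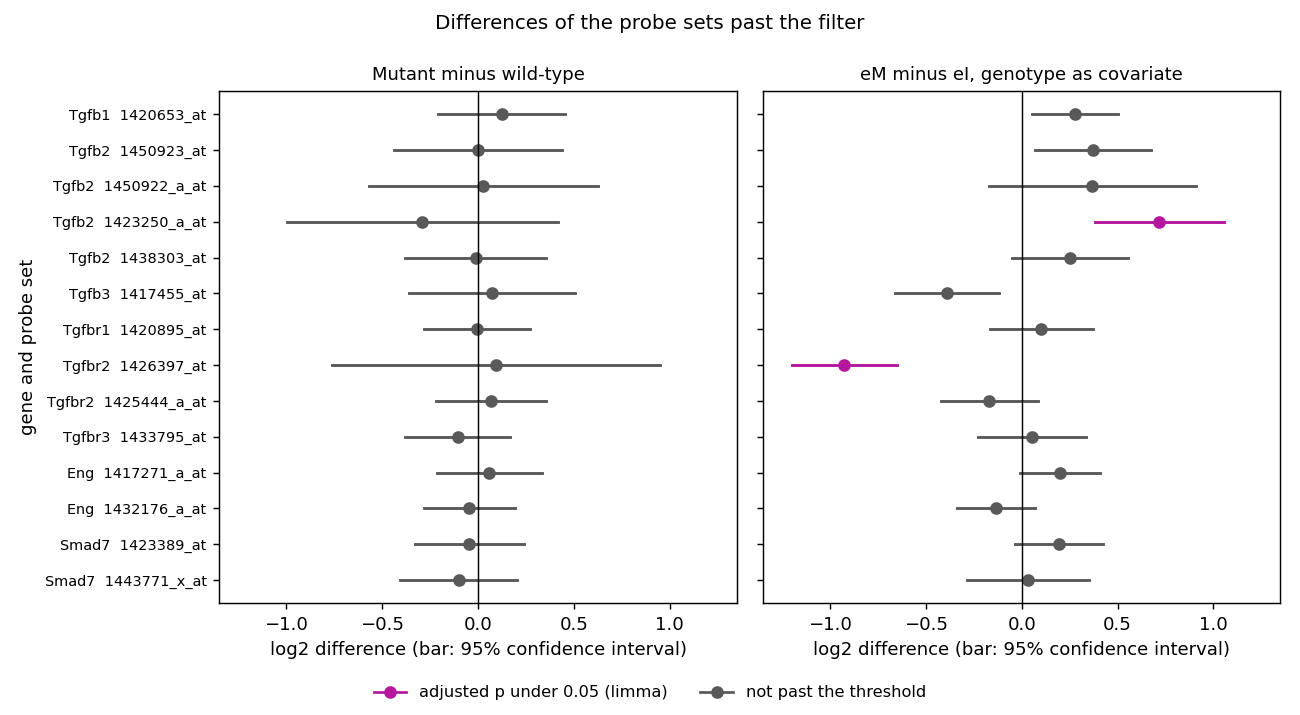
Log2 differences of the 14 tested probe sets (points) with 95% confidence intervals from limma (bars), mutant minus wild-type on the left and eM minus eI on the right. On the left every bar crosses 0, and on the right the coloured points mark the calls at Tgfbr2 (-0.92) and Tgfb2 (0.72).

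The ligand gene Tgfb2 was higher in both eM hearts at each of its 4 probe sets, when set against the eI mean. Its brightest probe set (1450923_at) read 9.22, 9.58 and 9.79 in wild-type hearts 1, 2 and 3, and 9.48, 9.34 and 9.76 in mutant hearts 1, 2 and 3. The eM hearts, number 3 of each genotype, were thus the highest, while the genotypes overlapped fully (9.53 ± 0.29 in wild-type and 9.53 ± 0.21 in mutant hearts, SD, n = 3 each). The eM minus eI difference of 0.37 ± 0.13 (SE) did not pass (adjusted p = 0.112), except without wild-type 2 (0.45, adjusted p = 0.0494). The called probe set was 1423250_a_at, with 7.64, 7.97 and 8.57 in wild-type and 7.70, 7.39 and 8.22 in mutant hearts. It was 1.65-fold higher in eM hearts (0.72 ± 0.14, 95% confidence interval 0.38 to 1.06, adjusted p = 0.0271), by 0.77 within wild-type and 0.67 within mutant hearts. The same probe set had the largest genotype difference of the 14, at -0.29 (8.06 ± 0.47 and 7.77 ± 0.42, n = 3 each; -0.26 in eI and -0.36 in eM), with an interval of -0.999 to 0.42. Leaving out a heart gave -0.04 without wild-type 3, -0.10 without mutant 2, -0.50 without wild-type 1 and -0.51 without mutant 3. The other 2 probe sets differed between eM and eI by 0.37 (1450922_a_at, where wild-type 1 was lowest at 8.30) and 0.25 (1438303_at), with overlap and adjusted p of 0.329 and 0.241. In the annotation 3 of the 4 share a source transcript, so they are not independent measurements.

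The receptor gene Tgfbr2 moved the other way and by the largest amount among the 9 genes. Its brightest probe set (1426397_at) read 10.54 and 10.30 in wild-type hearts 1 and 2, 10.44 and 10.42 in mutant hearts 1 and 2, but 9.37 in wild-type 3 and 9.63 in mutant 3. The 4 eI hearts spread by an SD of 0.10, and the eM hearts lay 1.90-fold lower (-0.92 ± 0.11 SE, interval -1.20 to -0.65, adjusted p = 0.00847). Within wild-type hearts the difference was -1.05 and within mutant hearts -0.80. This absolute difference was larger than that of 96.3% of tested probe sets. The genotypes did not separate (mean and SD of 10.07 ± 0.62 for wild-type against 10.16 ± 0.46 for mutant, n = 3 each), with a difference of 0.01 among eI and 0.26 among eM hearts. A second probe set (1425444_a_at), much dimmer with a mean of 5.69, was also lowest in the eM hearts, by -0.17 only (adjusted p = 0.339). The third (1422019_at) had a mean of 3.57, below the filter, and differed by -0.03 with overlap. The 3 probe sets come from different source transcripts, and the call rests on the brightest alone.

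**Figure D3:**
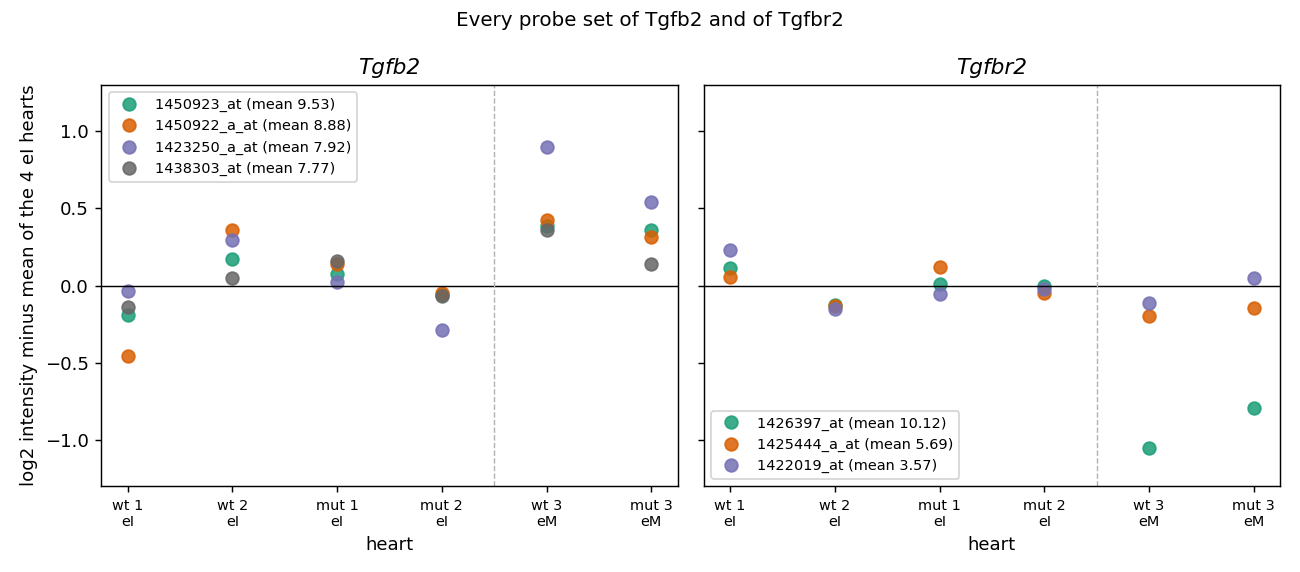
Log2 intensity of each probe set of Tgfb2 (left) and Tgfbr2 (right) in each heart, after subtracting the mean of the 4 eI hearts; colours mark probe sets, with their mean over the 6 hearts in the key. All 4 Tgfb2 probe sets lie above 0 in both eM hearts, and at Tgfbr2 only the brightest lies far below 0 in the eM hearts, with 9.37 in wild-type 3 and 9.63 in mutant 3 before subtraction of an eI mean of 10.43.

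Whether either difference passed depended on single hearts, while both kept their direction. In all alternatives run Tgfbr2 lay between -1.05 and -0.80 and Tgfb2 between 0.64 and 0.79. Leaving out wild-type 3 or mutant 3 left a single eM heart, and calls over the whole array fell too. Without wild-type 3 the differences were -0.80 for Tgfbr2 (adjusted p = 0.0601) and 0.67 for Tgfb2 (adjusted p = 0.158). Without mutant 3 they were -1.05 (adjusted p = 0.1) and 0.77 (adjusted p = 0.227), and without mutant 2 Tgfb2 gave 0.66 (adjusted p = 0.0952). With the level of Xist, a female-specific transcript, as a covariate Tgfbr2 stayed past the threshold, while Tgfb2 did not at 0.68 (adjusted p = 0.075).

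Several cell type markers moved with the same letters. The counts of calls below stand against 9.99% of all tested genes called, 4.3% higher and 5.7% lower. Genes named as outside the eI range stand against 43.1% of tested probe sets that were so. Of 10 endothelial and endocardial markers, 2 were lower in eM hearts (Emcn by 1.18 and Esam by 0.71 log2) and 0 higher, and their mean level ran from 9.34 to 9.36 in eM and from 9.44 to 9.53 in eI hearts. The other 8 lay between -0.38 (Tek) and 0.41 (Pecam1) and did not pass, with Pecam1, Flt1 and Nfatc1 above and Tek and Cdh5 below the range of the eI hearts in both eM hearts. Macrophage markers were lower at 4 of 6 tested genes, with means over all 7 of 5.60 to 5.63 against 6.43 to 6.86. Fibroblast and collagen markers were lower at 2 of 6, with means over 7 of 8.51 to 9.26 against 9.75 to 10.38. Erythroid markers were lower at 4 of 6 (9.54 to 9.59 against 10.19 to 11.04). Cushion and valve mesenchyme markers were higher at 4 of 10, Sox9, Msx1, Msx2 and Vcan, though the list means overlapped (8.64 to 8.82 in eM, 8.38 to 8.71 in eI). Of the same list Prrx1 (-0.81) and Snai2 (-0.73) lay below the eI range in both eM hearts without passing, and Twist1 gave -0.14. Smooth muscle and pericyte markers were higher at 3 of 7 (9.94 to 10.05 against 9.48 to 9.66), and heart muscle markers at 2 of 10 (13.41 to 13.43 against 13.29 to 13.33). Of the former, Pdgfrb (-0.59) lay below and Acta2 (0.38) above the eI range in both eM hearts without passing. Of the latter, Tnnt2 (-0.19), Tnni3 (-0.17) and Nppa (-0.25) lay below that range and Myl7 (0.28) above it, also without passing. Epicardial markers gave 2 higher and 1 lower of 9 (8.84 to 8.88 against 8.51 to 8.94). Platelet markers gave 1 lower of 5 (7.22 to 7.48 against 7.96 to 8.42), and liver and endoderm markers 1 lower of 6 (5.13 to 5.41 against 6.34 to 8.01). The part of these cells in the values of Tgfb2 and Tgfbr2 was not tested.

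RefSeq promoter entries matched 5 of the 8 genes looked up. Those of the 2 genes with a call are given below as the 250 bases before the annotated start (GRCm38.p6, written 5′ to 3′ on the gene's strand), since the values above concern their transcripts. Tgfb2 lies on the minus strand at chr1:186705990-186706239 and Tgfbr2 on the minus strand at chr9:116175364-116175613. Capitals mark matches, on either strand, to the TATA box TATAAA, the CCAAT box CCAAT, the GC box GGGCGG, the E-box CACGTG or the Smad-binding box CAGACA; no matches overlapped.
Tgfb2: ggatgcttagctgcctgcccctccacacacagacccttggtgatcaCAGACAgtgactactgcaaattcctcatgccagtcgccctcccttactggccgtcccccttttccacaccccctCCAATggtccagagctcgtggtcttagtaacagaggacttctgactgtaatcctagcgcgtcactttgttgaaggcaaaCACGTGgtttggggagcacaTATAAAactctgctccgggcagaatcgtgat
Tgfbr2: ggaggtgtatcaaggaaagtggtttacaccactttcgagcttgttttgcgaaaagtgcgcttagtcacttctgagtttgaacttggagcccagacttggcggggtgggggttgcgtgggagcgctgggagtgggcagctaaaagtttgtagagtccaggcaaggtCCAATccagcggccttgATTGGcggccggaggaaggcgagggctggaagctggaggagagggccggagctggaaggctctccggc
The Tgfb2 window held the TATA box from 31 to 26 bases before the start, the E-box from 51 to 46, a CCAAT box from 130 to 126 and the Smad-binding box from 204 to 199. The Tgfbr2 window held only CCAAT, once on each strand, from 85 to 81 and from 68 to 64 bases before the start. Of 32851 promoter entries, 12.4% held TATAAA in the same window, 33.8% CCAAT, 32.7% GGGCGG, 6.0% CACGTG and 17.1% CAGACA. These matches describe the letters of the windows and were not tied to the measured levels.

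At the other ligand genes no difference passed the test, and their eM minus eI differences had opposite signs. Tgfb1, the ligand of wide expression that also restrains immune cells, read 6.17, 6.23 and 6.49 in wild-type and 6.41, 6.25 and 6.60 in mutant hearts at the tested probe set. The eM hearts were the highest by a small margin, with a difference of 0.28 ± 0.09 (SE; adjusted p = 0.106) that was 0.29 in wild-type and 0.27 in mutant hearts. The mutant minus wild-type difference was 0.12 (interval -0.21 to 0.45). A second Tgfb1 probe set, below the filter with a mean of 5.29, differed between eM and eI by -0.38 in wild-type and 0.16 in mutant hearts. Tgfb3, which acts beside Tgfb2 in cushions, read 7.42, 7.27 and 7.12 in wild-type and 7.55, 7.50 and 6.97 in mutant hearts. The eM hearts were the lowest, by -0.39 ± 0.11 (SE, interval -0.66 to -0.12), which missed the threshold (adjusted p = 0.0757). It passed without wild-type 2 (adjusted p = 0.047) and with array weights (adjusted p = 0.047). It was -0.23 for the wild-type hearts, which is also the value without mutant 3, and -0.56 for the mutant hearts. Tgfb3 differed by 0.07 between genotypes (mean and SD of 7.27 ± 0.15 for wild-type against 7.34 ± 0.32 for mutant, n = 3 each).

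At Tgfbr1, the type I receptor gene that was tested, no difference passed the test. Tgfbr1, the usual partner of the type II receptor, read 10.98, 11.18 and 11.33 in wild-type and 11.19, 11.16 and 11.13 in mutant hearts at its bright probe set. The highest and lowest hearts were both wild-type, the genotype difference was -0.0039 (interval -0.28 to 0.27), and the eM minus eI difference of 0.10 (adjusted p = 0.585) was positive for the wild-type (0.24) and negative for the mutant hearts (-0.04). Its other 2 probe sets had means of 5.18 and 3.64, below the filter. Acvrl1, the receptor of endothelium also known as ALK1, was dim at both probe sets (means of 4.99 and 4.91) and was therefore not tested. At 1435825_at the mutant hearts (5.05, 5.15 and 5.01) lay above the wild-type hearts (5.01, 4.91 and 4.81), mutant 3 and wild-type 1 by less than the rounding, with a mean difference of 0.16 (two-sided exact permutation p = 0.1). It was the only 1 of the 21 probe sets without overlap, where 5.38% of all probe sets were, and the other Acvrl1 probe set differed by -0.22 with overlap.

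At the co-receptor genes, too, no difference passed the test. Tgfbr3 read 11.26, 11.04 and 11.08 in wild-type and 10.89, 11.04 and 11.14 in mutant hearts. The genotypes overlapped, with a difference of -0.11 (interval -0.38 to 0.17), and eM and eI hearts differed by 0.05 (adjusted p = 0.795). A second probe set, below the filter, read 4.48 to 5.59 and was not tested. Eng was read by 2 bright probe sets that went opposite ways in the eM hearts. At 1417271_a_at the eM hearts were the highest (10.07 and 10.18 against 9.88 to 9.97), and at 1432176_a_at they were the lowest (9.66 and 9.63 against 9.72 to 9.81). The differences of 0.20 and -0.13 did not pass (adjusted p = 0.191 and 0.35). Between genotypes they differed by 0.06 and -0.05.

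Smad7, the inhibitory Smad, read 9.27, 9.34 and 9.57 in wild-type and 9.38, 9.23 and 9.44 in mutant hearts at its bright probe set. The eM hearts were the highest of each genotype, by 0.20 ± 0.09 (SE), which did not pass (adjusted p = 0.228), and the genotypes differed by -0.05 (interval -0.33 to 0.24). Its dimmer probe set (mean 6.34) gave 0.03 between eM and eI and -0.10 between genotypes.

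An interaction term asked whether the mutant difference was another in eM than in eI hearts. Among the 14 probe sets it was largest at Smad7 (1443771_x_at, -0.34), Tgfb3 (-0.33) and Tgfb2 (1438303_at, -0.31). In limma 0 of 14 passed (smallest adjusted p = 0.92), 0 had an unadjusted p under 0.05, and over the array 0% were called and 5.32% had an unadjusted p under 0.05. With 1 eM heart per genotype and 2 residual degrees of freedom, this test leaves little room for a call.

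Other genes of the pathway were read from a list of 67 names, of which 62 had a probe set and 60 were tested. Between genotypes 0 of the 60 passed in limma, 0 had an unadjusted p under 0.05 (0.766% of all tested genes did), and the median difference was -0.03 against 0.003 over 13572 genes. Those of smallest p were Tab1, a kinase adaptor (0.15 ± 0.09, SE), Junb, a transcription factor gene (0.15 ± 0.10), Zfyve9, which anchors Smads at the receptor (0.16 ± 0.12), and the integrin gene Itgb3 (-0.19 ± 0.16), each with an adjusted p of 0.9999.

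Between eM and eI hearts, limma called 12 of the 60 genes, 5 higher and 7 lower in eM, where 9.99% of all tested genes were called, 4.3% higher and 5.7% lower. The median difference was -0.08 against -0.03 over all tested genes. Genes that store the ligand gave 1 higher and 2 lower of 5. Ltbp3, which tethers latent ligand to the matrix, was 1.96-fold lower in eM (9.37, 9.64, 9.71 and 9.65 in eI hearts, 8.89 in wild-type 3 and 8.35 in mutant 3; adjusted p = 0.0237). Nrros, which holds latent TGF-beta on myeloid cells, was 1.68-fold lower (adjusted p = 0.00904), and the fibrillin gene Fbn2 1.47-fold higher (adjusted p = 0.0257). Genes of activation gave 1 higher and 2 lower of 11: the integrin genes Itgb1 (-0.71, adjusted p = 0.00856) and Itgb5 (-0.73, adjusted p = 0.0215) fell, and Mmp14, a membrane protease, rose by 0.61 (adjusted p = 0.0260). Of 4 genes whose products bind the ligand outside the cell, Bgn, the proteoglycan biglycan, was 2.45-fold lower (10.79 to 10.93 in eI hearts, 9.84 and 9.29 in eM; adjusted p = 0.0071).

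Of the genes listed under transduction, 0 of 9 passed between eM and eI hearts (median 0.05), and of those listed under inhibition 0 of 10 (median -0.02). These are list names, and the direction in which each gene acts on the signal was not assessed. For lists this short that is close to the 9.99% of all tested genes called. Without passing, Skil (-0.47), Pmepa1 (-0.57) and Ppm1a (-0.24) lay below the eI range in both eM hearts. Tgif2 (0.23), Ski (0.13), Bambi (0.14), Smad3 (0.09) and Smad4 (0.19) lay above it, also without passing. Over the array, 43.1% of tested probe sets had both eM hearts above or both below the eI range. Targets gave 3 higher and 2 lower of 21. Tagln, a smooth muscle actin-binding protein, was 2.29-fold higher in eM hearts (12.99 and 13.33 against 11.75 to 12.19; adjusted p = 0.0099), the hyaluronan synthase gene Has2 2.03-fold higher (8.52 and 8.56 against 7.25 to 7.78; adjusted p = 0.0253) and the fibronectin gene Fn1 1.47-fold higher (adjusted p = 0.0408). The collagen gene Col1a2 was 2.18-fold lower (adjusted p = 0.0213) and Ccn2, a matricellular growth regulator, 1.99-fold lower (adjusted p = 0.0270). Tagln and Col1a2 are also among the marker genes above. Of the other targets, Postn (-1.47, adjusted p = 0.0526), Snai2 (-0.73), Cdkn2b (-0.40) and Snai1 (-0.11) lay below the eI range in both eM hearts. Acta2 (0.38) and Tgfb1i1 (0.28) lay above it, and none of these passed. Without mutant 1, 5 of the 60 genes were called and without mutant 2 there were 4. Fewer still were called without mutant 3, a run that left a single eM heart. Calls over the whole array fell in the same runs, as given at the end. Without mutant 3 the difference of Ccn2 went from -0.996 to -0.597 and that of Ltbp3 from -0.97 to -0.61.

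**Figure D4:**
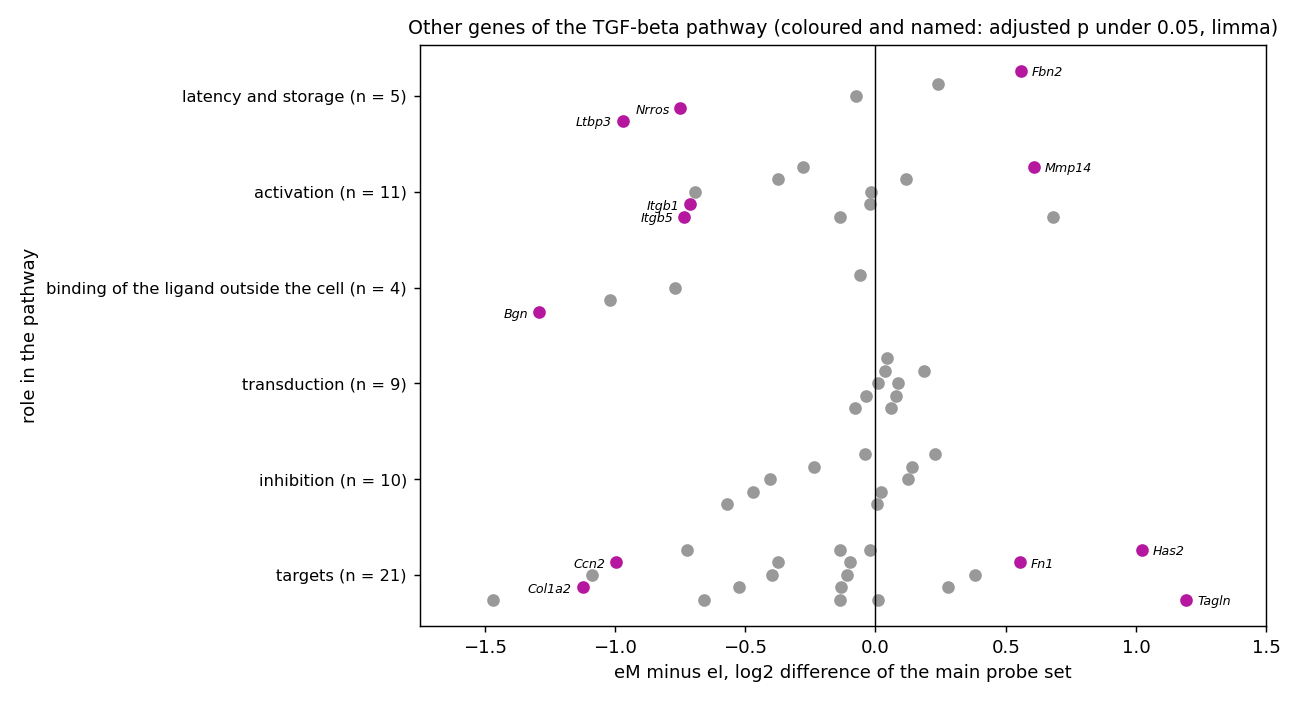
Difference between eM and eI hearts (log2, genotype as covariate) of each tested pathway gene, grouped by the role under which it was listed. Points of a row are offset vertically only for legibility. Coloured, named points passed an adjusted p of 0.05 in limma; they lie on both sides of 0, from Bgn at -1.29 to Tagln at 1.19, and the rows of transduction and inhibition hold none.

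For the 3 genes whose brightest probe set varied most, the genes of most similar profile were sought among 4872 varying genes, by Pearson correlation over the 6 hearts. Those of Tgfbr2 (range 1.17) were Mettl17 (r = 0.998), the nucleoside transporter gene Slc29a1 (0.997) and Esam, an endothelial adhesion molecule (0.994). Those of Tgfb3 (range 0.58) were C730049O14Rik (0.998), the myosin light chain gene Myl6 (0.995) and the phosphatase gene Ptpre (0.995). Those of Tgfb2 (range 0.57) were Gclc, an enzyme of glutathione synthesis (0.998), the muscle methyltransferase gene Smyd1 (0.996) and Crybg3 (0.992). All 9 separate the eM from the eI hearts, as did 43.1% of tested probe sets. This follows from their choice, since the 3 profiles they were matched to separate these hearts. The correlations describe these 6 arrays only.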

How the data were processed

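The deposited values are log2 intensities. RMA (robust multichip average) is the tool listed in the submitters' processing notes, without a version or settings. Of 45101 probe sets, 64 controls were left out. Genes were named by the platform annotation; 34945 probe sets had 1 gene name, 932 had more and were left unnamed in the text, and 9160 had none here. Scanner files were not used here, so background levels are unknown. Probe sets with a mean in the lowest 40% (below 5.38) were not tested. Tests ran over all 27022 others with limma 3.58.1 in R 4.3.3 (two-sided moderated tests from lmFit and eBayes; p-values adjusted by Benjamini-Hochberg; calls at 0.05), without covariates for genotype and with genotype as covariate for eM against eI; single values were compared by exact permutation. The fits were tested on simulated data. The genes described, the gene lists and the comparisons were chosen with earlier results of these data known. Pathway genes were named where they passed the threshold, or else the 4 of smallest p. Hearts were taken as separate animals from the design text. Same-numbered hearts, numbered by their titles, correlated at 0.18, 0.36 and 0.74 in their deviations from the group means. Differently numbered hearts gave 0.49 and 0.47 among eI hearts, and -0.73 to -0.39 between eI and eM hearts. A fit with the number as a block was run too. A gene was represented by its brightest probe set. Alternatives covered filter, normalization, array weights, covariates, blocks and each heart left out. Python 3.11.15 and matplotlib 3.10.9 made the plots.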

Additional observations from a re-analysis of the deposited data

Results flagged for a closer look

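Of the 21 probe sets, 2 had 1 eI heart far from the other 3, by Dixon's gap test over the 4 eI hearts, and both belong to Tgfbr1. At its bright probe set wild-type 1 read 10.98 against 11.16 to 11.19 in the other eI hearts, a gap of 0.851 of the range. At a dim probe set below the filter (1420893_a_at) wild-type 2 read 5.08 against 5.21 to 5.22. Chance alone marks about 1 group in 20 by this test. No interaction between genotype and letters passed the threshold at these probe sets, so no other result is listed here.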

How the results depend on the processing

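Between genotypes, limma called 0 of the tested probe sets of the 9 genes and 0 pathway genes under each alternative run, including the replicate number as a block (0 called over the array, smallest adjusted p = 0.9997); leaving out a heart gave 0 to 2 calls over the array. Uncalled genotype differences near 0 changed sign. Those of Tgfb2 1450923_at were -0.0039 with quantile normalization, -0.0023 with median centring, -0.12 with array weights and -0.16 with the Xist covariate, and those of 1450922_a_at -0.12 with weights and -0.13 with Xist. In eI hearts alone Tgfb2 1438303_at gave 0.090, Tgfbr1 0.090 and Smad7 1443771_x_at 0.011. With Xist, Tgfb1 gave -0.025, Tgfbr1 0.011, Eng -0.033 (1417271_a_at) and 0.011 (1432176_a_at). Leaving out each heart gave -0.15 to 0.13 (Tgfb2 1450923_at), -0.26 to 0.18 (1450922_a_at), -0.13 to 0.12 (1438303_at), -0.032 to 0.26 (Tgfb3), -0.094 to 0.078 (Tgfbr1), -0.26 to 0.36 and -0.0051 to 0.14 (Tgfbr2 1426397_at and 1425444_a_at), -0.021 to 0.11 (Eng 1417271_a_at) and -0.11 to 0.040 (Smad7 1423389_at). The genotype difference of Tgfb2 1423250_a_at kept its sign, from -0.035 to -0.51 without a heart, -0.46 with array weights and -0.61 with Xist. Between eM and eI, 3 uncalled differences turned: Smad7 1443771_x_at ran from -0.14 to 0.20, Tgfbr1 from -0.038 to 0.24 and Tgfbr3 from -0.067 to 0.18 when a heart was left out.

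The 2 calls between eM and eI became 1 to 4 when an eI heart was left out and 1 with the Xist covariate. The cause was not tested. The runs without an eI heart also had fewer hearts, while the Xist run kept all of them. Over the array, 3160 calls became 1 without mutant 3, 815 without mutant 2, 1208 without mutant 1, 1263 without wild-type 3 and up to 4333 otherwise, 5343 at an adjusted p of 0.1 and 1114 with Xist. The 12 pathway calls became 0 to 16 without a heart and 5 with Xist. Where leaving out a heart left 1 eM heart, that heart was assumed to vary like the others. Tgfbr2 kept its direction and lay between -1.05 and -0.80 in all alternatives run, and Tgfb2 1423250_a_at between 0.64 and 0.79. The number of arrays and the unknown background limit what the dim probe sets can show.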
